A study of Arabidopsis thaliana with 12 samples.

Results

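H2A.Z was compared between *ref4-3* and wild-type plants by chromatin immunoprecipitation and sequencing (ChIP-seq) of whole rosettes. *ref4-3* carries a semidominant point mutation in MED5b, a subunit of the Mediator tail, and both genotypes are in the Col-0 background. The plants had no other treatment and were 21 days old, and each genotype has 2 libraries from separately collected pools of rosettes. All 24960 regions of the H2A.Z count table were used, in 22249 genes. The whole series holds 33623 regions in 22870 genes over 2 chromatin marks, and these 4 libraries are among its 12 samples. A region is the part of a gene inside an H2A.Z-enriched stretch of either genotype. Gene groups, neighbouring loci, the level in wild-type plants and region length were then used to ask which kinds of genes differed. The counts cannot show the MED5b mutation itself, so the genotype of a library rests on its label.

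H2A.Z is a variant of histone H2A that the SWR1 complex places into nucleosomes. In Arabidopsis it lies at the first nucleosomes of many genes, and it covers the whole body of genes whose expression varies between tissues or with the environment, such as stress- and hormone-responsive genes. It is known to be evicted or redistributed at heat- and stress-responsive genes upon induction. Mediator links transcription factors to RNA polymerase II, and its tail module is the part that many of these factors bind.

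The 2 *ref4-3* libraries held 8863116 and 7848342 fragments inside H2A.Z regions, and the 2 wild-type libraries 9070114 and 10128759. The median region had 233 to 299 fragments per library and the lowest count was 30. Values below are CPM, fragment counts scaled to library depth with trimmed-mean factors, which set the typical region to no change. The median absolute log2 ratio between replicates was 0.10 in *ref4-3* plants and 0.08 in wild-type plants. Replicate 1 of *ref4-3* stood apart in how its level varied with the class of region, and replicate 2 of *ref4-3* was lowest at jasmonate genes. Results that rest on either library are therefore given with and without it. Rosettes are mixtures of cell types, and fewer cells with H2A.Z at a gene cannot be told apart from less H2A.Z per cell.

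Upstream stretches are printed for 4 genes of the gene groups described below. Each is the 250 bp before the annotated gene start, read 5′ to 3′ on the strand of the gene from the RefSeq TAIR10.1 assembly, and none overlaps another annotated gene. Capitals mark the G-box CACGTG and the evening element AAATATCT, searched on both strands. All 4 stretches hold a match, which is not typical of the groups. Among the 9 decreased jasmonate genes 1 has a G-box and 1 the evening element. For the 12 increased genes of the amino acid breakdown and dark-induced lists these numbers are 3 and 1. JAZ7 and LOX3 had less H2A.Z in *ref4-3* plants, and NAP and FKF1 had more.
JAZ7: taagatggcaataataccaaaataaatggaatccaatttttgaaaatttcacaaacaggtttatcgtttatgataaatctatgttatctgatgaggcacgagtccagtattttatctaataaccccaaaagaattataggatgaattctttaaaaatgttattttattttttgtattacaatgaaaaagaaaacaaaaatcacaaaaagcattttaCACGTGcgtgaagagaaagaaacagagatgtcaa
LOX3: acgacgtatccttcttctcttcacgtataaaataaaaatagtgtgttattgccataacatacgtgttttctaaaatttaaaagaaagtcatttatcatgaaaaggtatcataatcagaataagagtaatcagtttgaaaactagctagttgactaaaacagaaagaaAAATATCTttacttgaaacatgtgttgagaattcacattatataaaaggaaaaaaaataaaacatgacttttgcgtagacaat
NAP: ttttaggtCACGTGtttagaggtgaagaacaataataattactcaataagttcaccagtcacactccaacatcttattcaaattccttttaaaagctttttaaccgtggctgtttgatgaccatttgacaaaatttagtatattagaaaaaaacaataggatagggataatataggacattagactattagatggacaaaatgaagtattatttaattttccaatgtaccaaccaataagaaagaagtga
FKF1: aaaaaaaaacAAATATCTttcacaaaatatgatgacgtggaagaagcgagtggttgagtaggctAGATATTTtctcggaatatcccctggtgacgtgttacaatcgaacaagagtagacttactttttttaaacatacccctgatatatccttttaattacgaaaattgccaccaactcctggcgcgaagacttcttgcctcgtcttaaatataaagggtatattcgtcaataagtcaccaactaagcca
The windows lie at chr2:14572780-14573029 (JAZ7, plus strand), chr1:5977073-5977322 (LOX3, plus strand), chr1:26121830-26122079 (NAP, plus strand) and chr1:25508389-25508638 (FKF1, plus strand). The G-box of NAP begins 242 bp before its start, and that of JAZ7 begins 34 bp before the start. The G-box, which bZIP and bHLH factors such as MYC2 bind, was found before 67 of 646 genes with increased H2A.Z (10.4%) and 39 of 398 with decreased H2A.Z (9.80%), against 1447 of all 22248 genes with such a window (6.50%). The W-box core TTGAC, bound by WRKY factors, was present before 42.3% of increased and 50.0% of decreased genes, against 44.4% of all. The evening element was present before 5.57% of increased and 6.28% of decreased genes and 4.67% of all. The heat shock element GAANNTTC had shares of 8.05%, 11.1% and 9.50% in increased, decreased and all genes. The telo box AAACCCTA had shares of 2.79%, 4.77% and 4.52%, and the repeat GAGAGAGA 4.80%, 4.52% and 4.84%. These matches describe letters in a fixed window and were not tested.

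H2A.Z was decreased at 398 genes in *ref4-3* plants, which is 1.79% of the 22249 genes tested, and increased at 646 genes, or 2.90%, with 4.68% called in either direction. The criteria were an FDR (Benjamini-Hochberg adjusted p) below 0.05 in edgeR's exact test and a fold change above 1.2. These genes correspond to 407 decreased and 661 increased regions (1.63% and 2.65% of regions). The changes were modest in size. The median log2 difference was 0.36 in size among decreased and 0.41 among increased regions, against 0.094 over all regions. A change above 1.5-fold was seen at 42 decreased and 77 increased regions, and above 2-fold at 2 and 3. Both *ref4-3* libraries lay below both wild-type libraries at 406 of the 407 decreased regions and above them at all 661 increased regions. Of all regions 24.2% and 24.0% were separated in these ways. The calls come from these same 4 libraries. Separation at called regions, here and at single genes below, is therefore a description and no separate support. DESeq2, run on the same counts, called 17 genes decreased and 15 increased (0.0764% and 0.0674%). edgeR's quasi-likelihood test called 412 and 677. Of the 236 regions selected for individual description, 32 were called in every alternative fitted to single regions. Leaving out 1 library moved the counts. Without *ref4-3* replicate 1 there were 543 decreased and 560 increased genes, and without *ref4-3* replicate 2 there were 355 and 671. Without wild-type replicate 1 they were 106 and 146, and without wild-type replicate 2 they were 79 and 99.

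**Figure D1:**
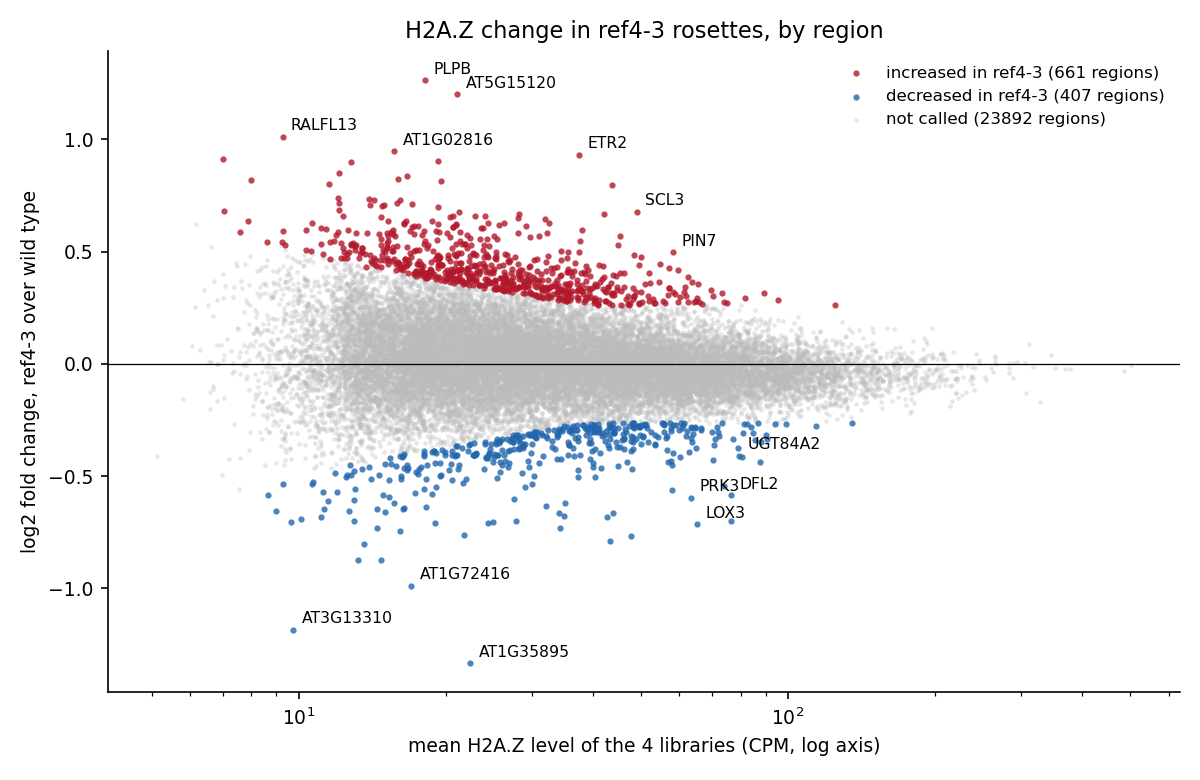
Log2 fold change of H2A.Z in *ref4-3* over wild-type plants (y axis) against the mean level of the 4 libraries in CPM (x axis, log scale), 1 point per region. The 661 increased regions lie mostly at low to middle levels, and few changes exceed 2-fold in either direction.

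The largest decrease was at AT1G35895, a gene annotated as an uncharacterized protein. Its region at the gene start (chr1:13353201-13354200) had 12.8 and 12.7 CPM in *ref4-3* libraries, against 30.3 and 33.9 CPM in wild-type libraries. The log2 fold change was −1.33 ± 0.13 (SE), with an FDR of 7.64e-24 in edgeR's exact test and 1.68e-08 in DESeq2. Here and below, the SE and the exact test use a variability estimate that edgeR pooled mostly over all regions (prior degrees of freedom 379.7). They therefore do not measure the spread between the replicates of the region itself. A pair of genes for DnaJ-domain proteins, which act as co-chaperones of HSP70, came next. AT3G13310 had 7.04 and 4.73 CPM in *ref4-3* libraries, against 14.3 and 12.9 CPM in wild-type libraries (log2 fold change −1.18). AT1G72416 had 13.7 and 8.82 CPM in *ref4-3* libraries, against 22.5 and 22.9 CPM in wild-type libraries (−0.99). The decrease at both was larger in *ref4-3* replicate 2, and without that library the log2 fold changes were −0.94 and −0.72. DnaJ genes as a family did not share this change, since 3 were decreased and 3 increased of 85 measured. Each count is 3.53%, against 1.79% of all genes decreased and 2.90% increased.

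Other large decreases were at the RNA genes AT1G06353 (−0.87) and AT1G07777 (−0.87) and the pseudogenes AT1G68285 (−0.80) and AT4G07521 (−0.73). DESeq2 called none of them. Some genes for responses to stress and hormones were decreased as well. RRTF1, an AP2/ERF factor induced by redox stress, had 42.1 and 28.1 CPM in *ref4-3* libraries, against 56.2 and 64.3 CPM in wild-type libraries (log2 fold change −0.77). AT4G08985, an RNA gene that overlaps it, shares its fragments and cannot be told apart from it. ERF2, another AP2/ERF factor, had 30.4 and 19.6 CPM in *ref4-3* libraries, against 39.9 and 38.5 CPM in wild-type libraries (−0.63). At both factors replicate 2 of *ref4-3* was the lowest library, and without it the log2 fold changes were −0.52 and −0.36. DESeq2 called neither RRTF1 (FDR 0.611) nor ERF2 (FDR 0.919). AT2G38240, annotated as a 2-oxoglutarate-dependent oxygenase, had 71.5 and 44.6 CPM in *ref4-3* libraries, against 91.8 and 98.5 CPM in wild-type libraries (−0.70). Its lowest library was also replicate 2 of *ref4-3*, and the value without it was −0.41. DESeq2 did not call this gene (FDR 0.925). Decreases that hardly differed between the *ref4-3* libraries were found at PRK3, a leucine-rich repeat receptor-like kinase, with 51.2 and 49.7 CPM in *ref4-3* libraries, against 74.2 and 78.2 CPM in wild-type libraries (−0.60, DESeq2 FDR 0.000303). TOPP6, a type one protein phosphatase, had 27.7 and 27.6 CPM in *ref4-3* libraries, against 41.8 and 43.2 CPM in wild-type libraries (−0.62). UGT84A2, which glucosylates sinapic acid in the phenylpropanoid pathway, had 68.3 and 68.5 CPM in *ref4-3* libraries, against 89.1 and 92.3 CPM in wild-type libraries (−0.41). At these 3 genes the *ref4-3* libraries lay closer to each other than to either wild-type library. DFL2, annotated as an auxin-responsive GH3 family protein, decreased by a log2 fold change of −0.58. GTR1, a glucosinolate transporter whose region overlaps another gene, had a value of −0.55. PDX1.1 (vitamin B6 synthesis; −0.73, DESeq2 FDR 0.498) has a near-identical stretch elsewhere in the genome, so its count is uncertain. Of the 236 named regions 4 have such a copy, the others being AT3G29800, FBH1 and EDA34, which has its change in the opposite direction (0.59).

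The largest increases were at PLPB and AT5G15120. PLPB encodes a PAS/LOV protein, a class with a flavin-binding light-sensing domain. Its region inside the gene (chr2:760001-760800) had 24.1 and 27.1 CPM in *ref4-3* libraries, against 11.3 and 10.0 CPM in wild-type libraries. The log2 fold change was 1.26 ± 0.13 (SE, FDR 1.98e-18 in the exact test and 3.78e-06 in DESeq2). AT5G15120 encodes PCO1, a plant cysteine oxidase that senses oxygen. The region at its start (chr5:4898641-4899400) had 27.7 and 31.1 CPM in *ref4-3* libraries, against 14.3 and 11.3 CPM in wild-type libraries (2.30-fold, with a log2 SE of 0.12). At both genes each *ref4-3* library was well above each wild-type library, and the call held under all 15 alternatives fitted to single regions.

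ETR2, a receptor for ethylene, had 42.8 and 55.5 CPM in *ref4-3* libraries, against 26.3 and 24.9 CPM in wild-type libraries (0.93 ± 0.09). AT5G49700, an AT-hook DNA-binding protein, had 52.7 and 58.4 CPM in *ref4-3* libraries, against 33.7 and 30.1 CPM in wild-type libraries (0.80). SCL3, a GRAS protein of the gibberellin pathway, had 56.3 and 64.9 CPM in *ref4-3* libraries, against 37.3 and 38.2 CPM in wild-type libraries (0.68). The groups did not overlap at these 3 genes. They were increased in DESeq2 as well, and a call by both tools was a ground for naming genes. ACBP3, an acyl-CoA-binding protein linked to leaf senescence, increased by 0.81 on the log2 scale, and AT1G02816, annotated as a DUF538 protein, by 0.95. ERD5, the proline dehydrogenase that begins proline breakdown, had 15.1 and 15.0 CPM in *ref4-3* libraries, against 9.07 and 8.92 CPM in wild-type libraries (0.74). The calls at ERD5, at BCB (a blue copper-binding protein; 0.80) and at ATTPS6 (trehalose-6-phosphate synthase family; 0.83) were not made by DESeq2, where their FDR was 0.345, 0.316 and 0.0723.

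**Figure D2:**
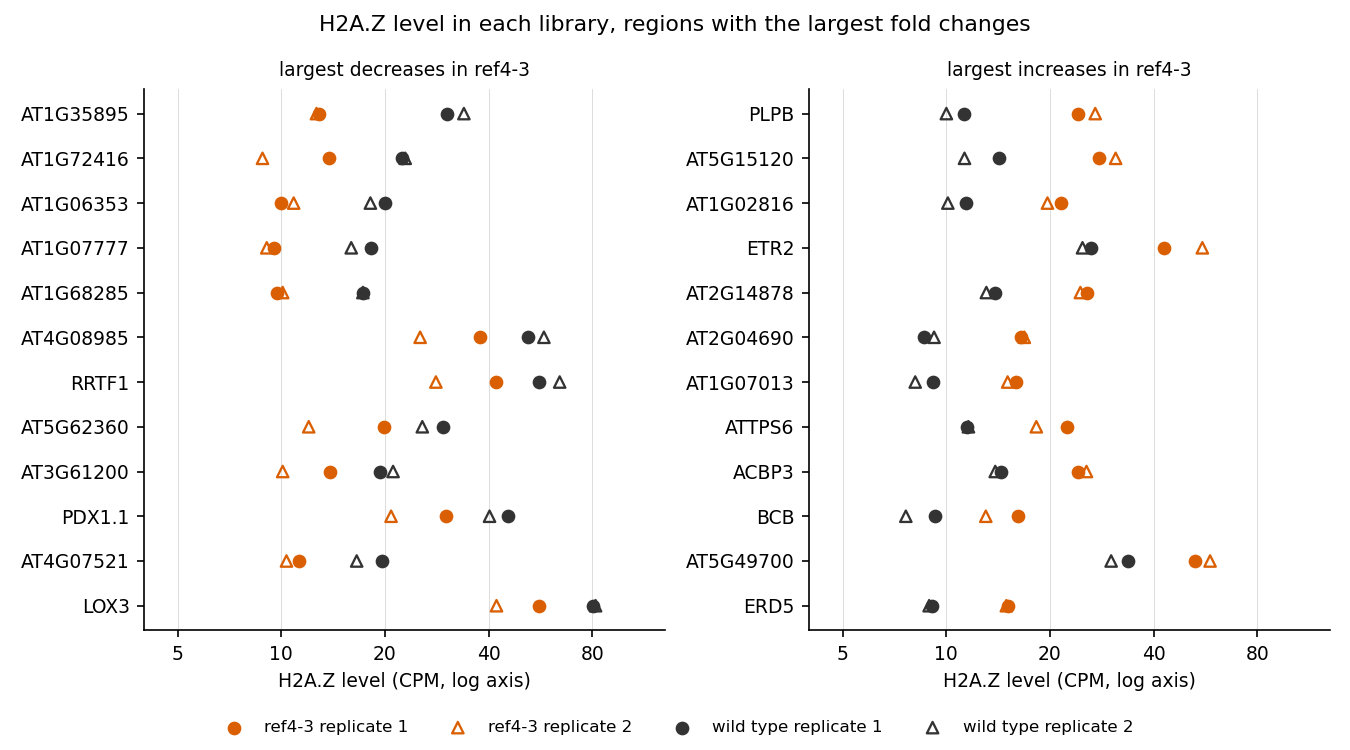
H2A.Z level in CPM (x axis, log scale) in each of the 4 libraries for the 12 regions with the largest decreases (left) and increases (right) among regions with a mean count of at least 100 and groups that do not overlap. Filled circles are replicate 1 and open triangles replicate 2. PLPB has 24.1 and 27.1 CPM in the *ref4-3* libraries, against 11.3 and 10.0 CPM in the wild-type libraries.

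Of the gene lists examined, jasmonate biosynthesis and JAZ genes had the lowest medians. Both lists were chosen with earlier results of these data known, so their counts are a description. Jasmonate is a fatty-acid-derived hormone of wounding and defence, made from linolenic acid in the plastid and peroxisome, and JAZ proteins repress its transcription factors. H2A.Z was decreased at 6 of 14 measured biosynthesis genes (42.9%, against 1.79% of all genes) and increased at 0 (against 2.90%). The median log2 fold change over their 19 regions was −0.25, against −0.0012 over all regions, and both *ref4-3* libraries lay below both wild-type libraries at 14 of the 19. LOX3, a lipoxygenase of the initial step, had 56.0 and 42.2 CPM at its start (chr1:5977401-5979200) in *ref4-3* libraries, against 80.4 and 81.8 CPM in wild-type libraries (−0.71 ± 0.07). Its second region had 40.4 and 27.2 CPM in *ref4-3* libraries, against 54.6 and 53.6 CPM in wild-type libraries (−0.66). AOC1, an allene oxide cyclase, had 7.37 and 6.52 CPM in *ref4-3* libraries, against 11.2 and 10.8 CPM in wild-type libraries (−0.65). Both genes had the groups fully apart. OPR3, the peroxisomal reductase of the pathway, had 16.4 and 13.0 CPM in *ref4-3* libraries, against 21.0 and 20.0 CPM in wild-type libraries (−0.47). LOX4 (−0.32), OPCL1 (−0.31) and JAR1 (−0.27), which activates jasmonate by conjugation to isoleucine, were decreased by less. LOX2 (−0.26, FDR 0.0139) and AOS (−0.24, FDR 0.0296) missed the fold threshold, and AOC4 had a value of 0.30 at an FDR of 0.0515.

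Among the JAZ repressors 3 of 8 measured genes were decreased (37.5%, against 1.79% of all genes) and 0 increased (against 2.90%). The median log2 fold change of the list was −0.20. JAZ5 had 39.8 and 21.3 CPM in *ref4-3* libraries, against 41.9 and 45.9 CPM in wild-type libraries (−0.50). JAZ7 had 25.0 and 17.9 CPM in *ref4-3* libraries, against 27.5 and 32.7 CPM in wild-type libraries (−0.48). TIFY7, which is JAZ9, had 13.2 and 12.3 CPM in *ref4-3* libraries, against 17.4 and 22.4 CPM in wild-type libraries (−0.65). The decrease at JAZ5 was mostly in *ref4-3* replicate 2, and without that library its log2 fold change was −0.14. The same library was the lower of the pair at the biosynthesis genes. Without *ref4-3* replicate 1 there were 8 decreased biosynthesis genes and 3 decreased JAZ genes, and without *ref4-3* replicate 2 there were 2 and 1. The medians were −0.37 and −0.31 without replicate 1, and −0.16 and −0.11 without replicate 2. Without wild-type replicate 1 there were 1 and 3 decreased genes, and without wild-type replicate 2 there were 1 and 0. Neither list had a gene called by DESeq2 (FDR 0.0970 at LOX3). The 12 measured jasmonate factors and outputs include MYC2, MYC4, COI1 and VSP2. Of these listed genes edgeR's exact test and DESeq2 called 0 in either direction, and 1 in each direction had an unadjusted p below 0.05. Jasmonate genes outside the lists were not counted. The MYC2 regions had log2 fold changes of −0.32 to 0.28 and FDR values of 0.145 or more. The ILR1-like amidohydrolases, which cleave hormone conjugates, form a list drawn up after the values were seen. Of its 7 measured genes 2 were decreased (28.6%, against 1.79% of all genes). These were IAR3 (−0.55) and ILL6 (−0.51), and without *ref4-3* replicate 2 there were 0.

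Some of the genes that break down amino acids, and some of those induced in darkness or in senescent leaves, were increased. Both lists were drawn up after the values were seen, so their counts are a description and no evidence of a direction. Of 10 measured genes for the breakdown of branched-chain amino acids and tyrosine, 6 were increased and 0 decreased, and the median was 0.36. Over all genes 2.90% were increased and 1.79% decreased. Both *ref4-3* libraries lay above both wild-type libraries at all 10 regions, against 24.0% of all regions. PDS1, the dioxygenase that turns 4-hydroxyphenylpyruvate into homogentisate, had 49.2 and 54.3 CPM in *ref4-3* libraries, against 32.1 and 32.8 CPM in wild-type libraries (0.67 ± 0.09, DESeq2 FDR 0.00149). HGO, which acts on homogentisate in the next step, had 17.2 and 17.9 CPM in *ref4-3* libraries, against 13.4 and 11.5 CPM in wild-type libraries (0.50). Successive steps of tyrosine breakdown thus had more H2A.Z in both *ref4-3* libraries. MCCA, the biotin-carrying subunit of methylcrotonyl-CoA carboxylase in leucine breakdown, had 31.4 and 38.0 CPM in *ref4-3* libraries, against 22.2 and 21.2 CPM in wild-type libraries (0.67). MCCB, the other subunit, had 32.4 and 32.2 CPM in *ref4-3* libraries, against 25.8 and 24.3 CPM in wild-type libraries (0.37). DIN4, a subunit of the branched-chain ketoacid dehydrogenase, had 29.1 and 28.5 CPM in *ref4-3* libraries, against 19.1 and 18.7 CPM in wild-type libraries (0.60). BCAT-2, a branched-chain aminotransferase, had a log2 fold change of 0.36. Without *ref4-3* replicate 1 there were 6 increased genes and without replicate 2 there were 5. Without wild-type replicate 1 and 2 there were 4 and 3. DESeq2 called 2 (PDS1 and MCCA).

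Of 17 measured dark-induced and senescence genes, 7 were increased (41.2%, against 2.90% of all genes) and 0 decreased (median 0.25). NAP, a NAC factor that promotes leaf senescence, had 44.0 and 47.3 CPM in *ref4-3* libraries, against 31.5 and 28.9 CPM in wild-type libraries (0.59). SEN1 had 41.6 and 37.4 CPM in *ref4-3* libraries, against 25.2 and 26.0 CPM in wild-type libraries (0.63). NYC1, a chlorophyll b reductase, had 23.7 and 24.0 CPM at 1 of its regions in *ref4-3* libraries, against 15.0 and 14.4 CPM in wild-type libraries (0.70). bZIP1, a factor of the low-energy response, had 16.9 and 20.2 CPM in *ref4-3* libraries, against 11.2 and 11.4 CPM in wild-type libraries (0.71). ASN1, the dark-induced asparagine synthetase, had 17.9 and 17.8 CPM at its start in *ref4-3* libraries, against 12.5 and 12.4 CPM in wild-type libraries (0.52). The longer region inside ASN1 had a log2 fold change of −0.05 (FDR 0.782). YLS2 (0.49) and DIN4 complete the called genes, and DIN4 stands in both lists. Late senescence markers did not pass the test, with values of −0.03 at SAG12, −0.15 at SAG13 and −0.0040 at SAG29. Without *ref4-3* replicates 1 and 2 there were 7 and 8 increased genes, without wild-type replicates 1 and 2 there were 6 and 5, and DESeq2 called 2. Of the 12 increased genes of both lists together 3 have a G-box in the printed kind of window (25.0%), while this holds for 1 of the 9 decreased jasmonate genes (11.1%). Among all measured members the order was the other way round, with 3 of 26 genes of these lists (11.5%) and 5 of 22 jasmonate genes (22.7%).

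**Figure D3:**
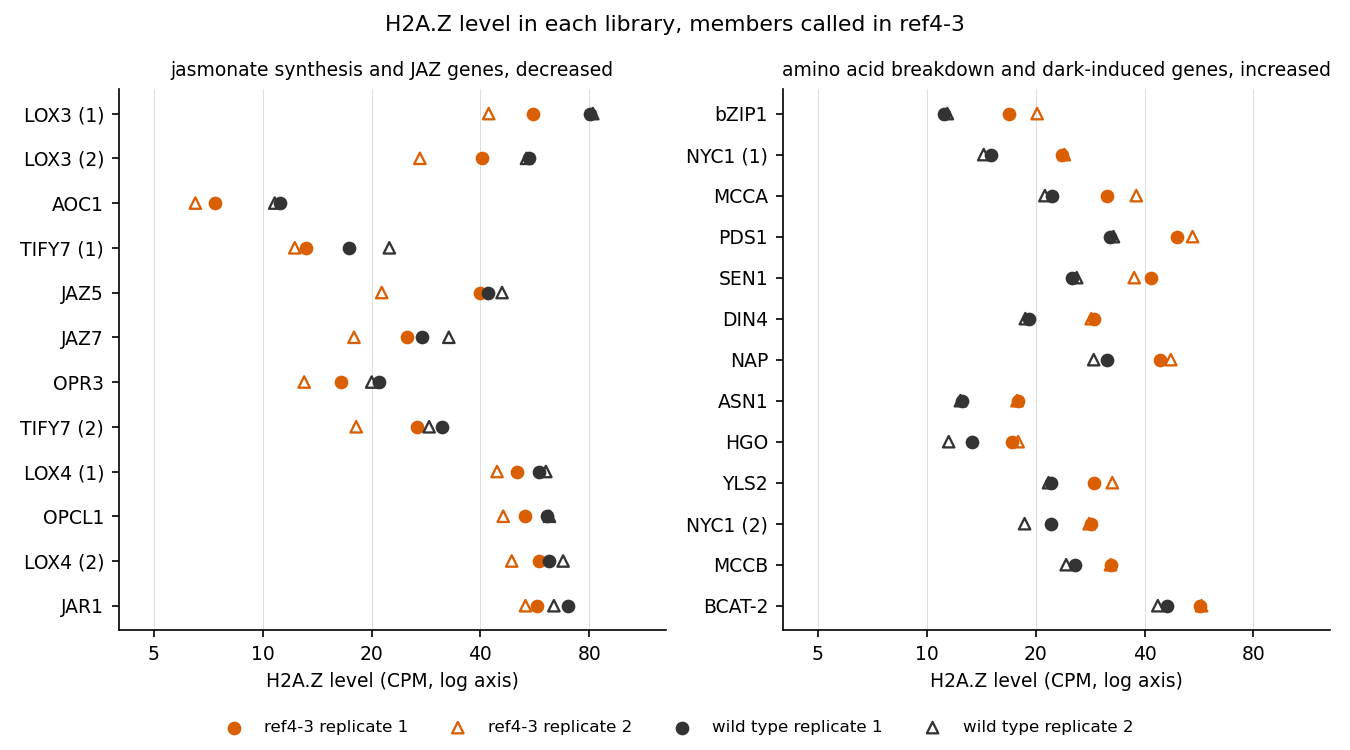
H2A.Z level in CPM (x axis, log scale) in each library at the called regions of the jasmonate biosynthesis and JAZ lists (left) and of the amino acid breakdown and dark-induced lists (right), with a number after the gene name where it has 2 called regions. On the left replicate 2 of *ref4-3* (open orange triangles) is the lowest library at every row, whereas on the right both *ref4-3* libraries lie above both wild-type libraries and neither is the higher at every row.

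H2A.Z at genes of the hypoxia response differed between members. Of 12 measured core hypoxia genes, which low oxygen induces across tissues, 3 were increased (AT5G15120, ETR2 and LBD41) and 0 decreased. The increased share was 25.0%, while over all genes 2.90% were increased and 1.79% decreased. LBD41, a LOB-domain factor, had 25.9 and 28.0 CPM in *ref4-3* libraries, against 17.4 and 20.9 CPM in wild-type libraries (0.48). The second region of AT5G15120 had a log2 fold change of 0.84. In contrast ADH1 (0.23), PDC1 (0.03) and SUS4 (−0.20) did not pass, and the list median was 0.07. Ethylene receptors and LOV-domain photoreceptors were gathered into lists after the values were seen. ERS2, the other ethylene receptor measured, had 22.2 and 21.9 CPM inside the gene in *ref4-3* libraries, against 14.9 and 16.2 CPM in wild-type libraries (0.50). Of 5 measured LOV-domain genes 2 were increased (40.0%, against 2.90% of all genes), PLPB and FKF1. FKF1, a blue-light receptor of the photoperiod pathway, had 38.8 and 39.1 CPM at its start in *ref4-3* libraries, against 24.6 and 25.2 CPM in wild-type libraries (0.65). GI, the partner of FKF1, had 17.3 and 17.4 CPM in *ref4-3* libraries, against 9.95 and 11.2 CPM in wild-type libraries (0.71). GI was the single called gene of 13 measured clock genes, and ZTL, a LOV F-box gene related to FKF1, had a value of 0.35 at an FDR of 0.166. The counts of increased hypoxia and LOV genes were the same with either *ref4-3* library left out, and without *ref4-3* replicate 1 there was also 1 decreased hypoxia gene.

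Lists for auxin, cytokinin, abscisic acid and cold each had 3 or 4 increased genes. Of 20 measured auxin synthesis and transport genes 4 were increased and 0 decreased, all of them membrane carriers. PIN7, an efflux carrier, had 67.8 and 68.4 CPM in *ref4-3* libraries, against 47.9 and 48.6 CPM in wild-type libraries (0.50, DESeq2 FDR 0.0168). PIN3 (0.32) and PIN4 (0.47), other efflux carriers, and AUX1 (0.30), an influx carrier, followed. Without either *ref4-3* library there were 3 increased genes, and without wild-type replicates 1 and 2 there were 2 and 1. Among 17 cytokinin response genes 3 type-A response regulators were increased, RR5 (0.51), ARR9 (0.42) and ARR7 (0.34). That count is fragile, since it was 1 and 4 without *ref4-3* replicates 1 and 2, and 0 without either wild-type library. Abscisic acid and drought genes had 4 of 16 increased, HB-12 (0.53), COR413IM1 (0.44), HAB1 (0.38) and LTI78 (0.29), which is RD29A. HB-12, a homeodomain factor induced by water deficit, had 57.2 and 48.9 CPM in *ref4-3* libraries, against 35.8 and 38.0 CPM in wild-type libraries. Of 13 cold genes 3 were increased, COR47 (0.36) and again COR413IM1 and LTI78, whereas CBF1, CBF2 and DREB1A had values of −0.09 to 0.08. Without *ref4-3* replicates 1 and 2 there were 5 and 3 increased abscisic acid genes and 2 and 3 cold genes. Without wild-type replicates 1 and 2 there were 3 and 1, and 3 and 0, and DESeq2 called 0 in both lists. Gibberellin and shade genes had 1 decrease (GA3OX2) and 1 increase (PIF3) of 17 (5.88% each, against 1.79% and 2.90% of all genes).

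The phenylpropanoid pathway was of interest because *ref4* mutants were isolated for reduced epidermal fluorescence, a phenotype of this pathway. Of 22 measured genes 1 was decreased (4.55%) and 2 increased (9.09%), against 1.79% and 2.90% of all genes. PAL1 was decreased at 1 of 3 regions, with 25.1 and 26.3 CPM in *ref4-3* libraries, against 33.8 and 33.8 CPM in wild-type libraries (−0.40). LysoPL2, which is caffeoyl shikimate esterase, was increased, with 45.3 and 42.3 CPM in *ref4-3* libraries, against 31.6 and 30.5 CPM in wild-type libraries (0.50), as was ATCAD4 (0.35), an alcohol dehydrogenase of lignin synthesis. The other 2 regions of PAL1 had values of 0.03 and 0.17, so the gene did not change along its length in the same way. Without *ref4-3* replicate 2 there were 4 increased genes, and with either wild-type library left out there were 1 increased and 0 decreased. Flowering genes had 2 decreases of 14 (14.3%, against 1.79% of all genes), at TSF (−0.41) and MAF5 (−0.36). FLC did not pass at either region (−0.06 and 0.22). Heat shock genes had 1 increase of 16, at HSP101, with 25.7 and 18.3 CPM in *ref4-3* libraries, against 15.5 and 16.6 CPM in wild-type libraries (0.47). That call was lost without *ref4-3* replicate 1, where the value was 0.19. Iron genes had 1 decrease (FER3) and 1 increase (OPT3) of 17, flower organ genes 1 decrease (SEP2) and 1 increase (SEP1) of 8, stress factors 1 increase (ZAT6) of 12 and Polycomb genes 1 increase (RING1A) of 10.

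In several lists edgeR's exact test and DESeq2 called 0 genes. Over all 22249 genes 2119 were lower and 2337 higher with an unadjusted p below 0.05. At that threshold there were 4 lower and 0 higher of 19 flavonoid genes, 1 lower and 5 higher of 20 glucosinolate genes, 3 lower and 3 higher of 16 salicylic acid genes, and 2 lower and 0 higher of 13 nitrate and phosphate genes. The genes for H2A.Z and its SWR1 and INO80 complexes had 0 lower and 1 higher of 9, and those for Mediator subunits 0 of 3. Markers of other cell types of a rosette or of other organs had 0 lower and 1 higher of 5 trichome genes, 1 lower and 0 higher of 7 root genes, 0 of 5 guard cell genes and 0 of 6 shoot meristem genes. Their list medians ranged from −0.04 to 0.0077, against −0.0012 over all regions.

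**Figure D4:**
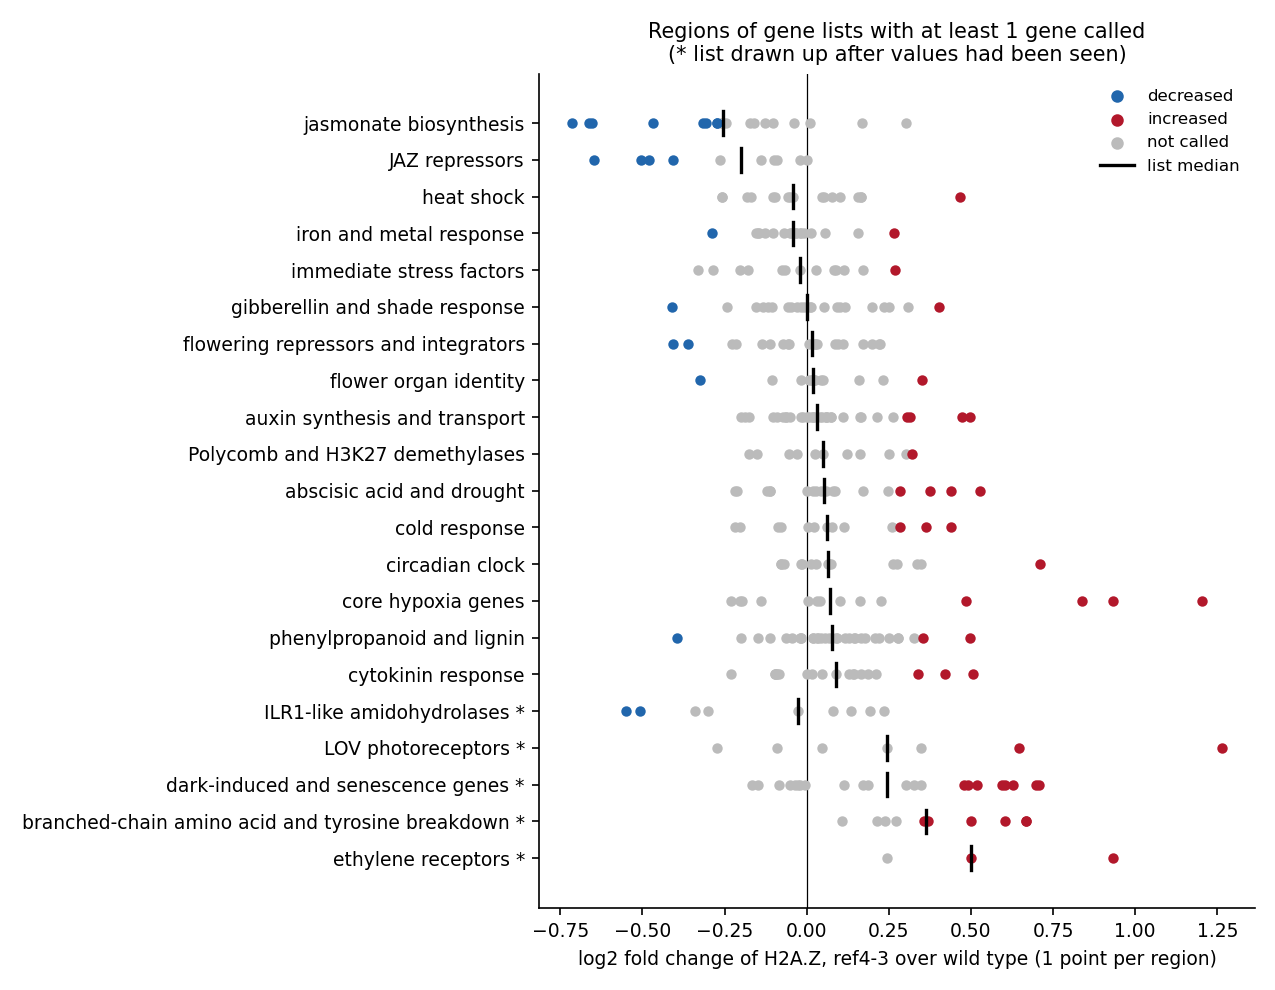
Log2 fold change of H2A.Z in *ref4-3* over wild-type plants (x axis) for every region of each gene list with at least 1 called gene, with decreased regions in blue, increased in red and the list median as a bar. The jasmonate biosynthesis and JAZ lists have medians of −0.25 and −0.20, and an asterisk marks lists drawn up after the values were seen.

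Gene families defined by words in the annotation were then counted. Most were near the background of 1.79% decreased and 2.90% increased genes. Decreased genes outnumbered increased ones among F-box genes (14 and 7 of 543), MATE, ABC, sugar and nitrate transporters (7 and 2 of 256) and hypothetical proteins (7 and 1 of 159). The decreased shares were 2.58%, 2.73% and 4.4%, against 1.79% of all genes, and the family medians were −0.03, −0.03 and −0.04. Without wild-type replicates 1 and 2, decreased genes numbered 1 and 1 among F-box genes, 3 and 2 among these transporters and 2 and 2 among hypothetical proteins. Increased genes outnumbered decreased ones among UDP-glycosyltransferases (7 and 1 of 124, 5.65% increased) and homeobox factors (7 and 1 of 175, 4.0% increased). The same held for lectin, wall-associated and cysteine-rich receptor kinases (8 and 3 of 115, 6.96% increased). Word matches can take in genes outside a family, such as ATTPS6 among the increased UDP-glycosyltransferases. The homeobox words matched 208 annotated genes, and whether each has a homeobox was not checked. The receptor kinase count fell when *ref4-3* replicate 1 or either wild-type library was left out, and the family median was −0.02. Aquaporins had 4 of 35 increased and 0 decreased. PIP1B, a plasma membrane water channel, had 62.5 and 60.4 CPM in *ref4-3* libraries, against 46.9 and 48.5 CPM in wild-type libraries (0.37). Genes found under histone had 4 of 43 increased and 0 decreased, with a family median of 0.10 that was also 0.10 without *ref4-3* replicate 1. They were the H2B gene AT2G28720 (0.56), the H2A gene HTA7 (0.44), the H4 gene AT5G59970 (0.39) and AT4G17080 (0.48), which is annotated as a histone methyltransferase and is not a histone. HTA7 had 30.8 and 29.5 CPM in *ref4-3* libraries, against 21.1 and 23.3 CPM in wild-type libraries. Without wild-type replicates 1 and 2, increased genes numbered 3 and 2 among UDP-glycosyltransferases, 3 and 1 among homeobox factors, 1 and 1 among aquaporins and 0 and 1 among histones. Transcription factor families gave mixed results. WRKY factors had 2 decreased and 1 increased of 64, MYB factors 6 and 5 of 147 and AP2/ERF factors 5 and 4 of 152. The AP2/ERF count follows annotation words, so it takes in the ethylene receptor ERS2 as increased and leaves out the decreased RRTF1. NAC factors had 0 and 3 of 103 (NAP, NAC047 and NAC089). Pectin enzymes had 6 decreased and 7 increased of 206. The neighbours AT5G62350 and AT5G62360, both for pectin methylesterase inhibitors, were both decreased (−0.70 and −0.76). Without *ref4-3* replicate 2 the values were −0.59 and −0.46, and the DESeq2 FDR was 0.0385 and 0.906.

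By H2A.Z density in wild-type plants, the lowest quintile held 414 of the 661 increased regions. That density also enters the fold change, and with sorting on all 4 libraries the lowest quintile held 245. The shift of the medians was larger in 1 *ref4-3* library than in the other. Regions were sorted into quintiles by their H2A.Z density (CPM per kb) in wild type. In the lowest quintile 8.29% of regions were increased and 1.22% decreased. In the highest quintile 0.341% were increased and 1.92% decreased, against 2.65% and 1.63% of all regions. Without *ref4-3* replicate 1 the increased and decreased shares were 5.97% and 2.06% in the lowest quintile, and 0.721% and 1.70% in the highest. For the medians, the lowest quintile minus the highest was 0.12 on the log2 scale, and 0.058 without *ref4-3* replicate 1. Against the mean of the 4 libraries this contrast was 0.11 in *ref4-3* replicate 1, 0.0040 in *ref4-3* replicate 2, and −0.050 and −0.064 in the wild-type libraries. The wild-type libraries both sort the regions and enter the difference here, so the libraries were also split for the medians. The called shares were not examined with split libraries. Sorting on wild-type replicate 1 and comparing with replicate 2 gave 0.089, and the reverse gave 0.078, as means of both *ref4-3* libraries. In those settings *ref4-3* replicate 1 had 0.14 and 0.13, and *ref4-3* replicate 2 had 0.035 and 0.026. When the density of all 4 libraries sorted the regions, the contrast was 0.026, and −0.039 without *ref4-3* replicate 1. Of the lowest quintile 4.91% were then increased and 2.82% decreased, and of the highest 0.641% and 1.14%. Without *ref4-3* replicate 1 these shares were 3.39% and 4.55% in the lowest quintile, and 1.12% and 0.921% in the highest. In this sorting the lowest quintile held more calls than the highest in both directions.

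Differences by region length also lay mainly in *ref4-3* replicate 1. The longest quintile minus the shortest quintile was −0.062 on the log2 scale, and −0.022 without *ref4-3* replicate 1. With offsets for mean count it was 0.010. The contrast was −0.074 in *ref4-3* replicate 1 and 0.0081 in *ref4-3* replicate 2, and 0.022 and 0.033 in the wild-type libraries. Increased regions made up 1.98%, 3.29%, 3.71%, 3.23% and 1.04% of the quintiles in order of length, and decreased regions 1.02%, 1.30%, 1.48%, 2.62% and 1.72%. Short regions have fewer fragments (a median mean count of 128.8 in the shortest quintile and 694.4 in the longest), and the part of depth in these shares was not tested. GC content gave a contrast of −0.011 between the highest and the lowest quintile. The chromosomes differed little, with 2.23% to 2.90% of regions increased and 1.46% to 1.97% decreased.

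**Figure D5:**
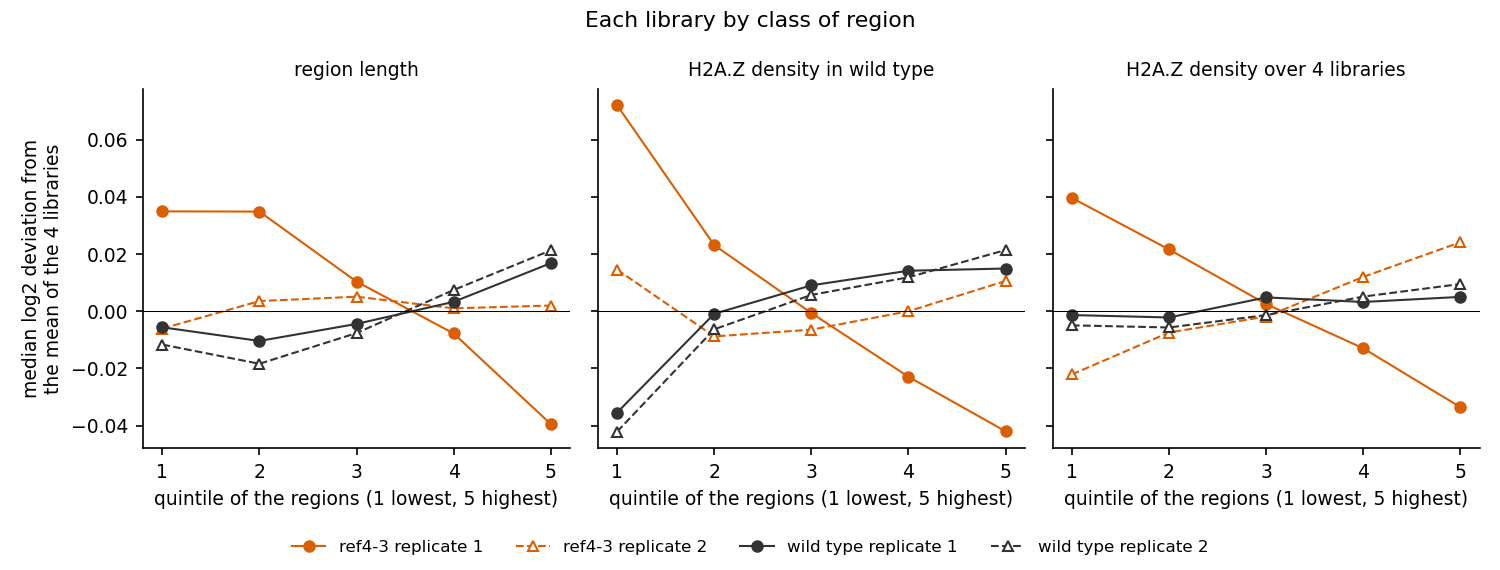
Median log2 deviation of each library from the mean of the 4 libraries (y axis) in quintiles of the regions by length, by H2A.Z density in wild type and by density over all 4 libraries (x axis, lowest to highest). Replicate 1 of *ref4-3* slopes down in all 3 panels, as in the density in wild type with 0.072 in the lowest and −0.042 in the highest quintile, while the other 3 libraries do not.

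Where a region lies in its gene also differed between called classes. Of regions inside a gene, touching neither its start nor its end, 5.84% were increased and 2.51% decreased. Of regions at the gene start 3.28% and 1.44% were increased and decreased, of regions at the end 1.59% and 1.96%, and of regions covering the whole gene 0.887% and 1.41%. The inside regions minus the whole-gene regions gave 0.050 on the log2 scale and 0.010 without *ref4-3* replicate 1, so the shift of the medians was again carried by that library. Without it 4.52% of inside regions were still increased, and 0.996% of whole-gene regions. Genes that also carry an H3K27me3 region had 0.969% of regions increased and 1.59% decreased, and other genes 3.59% and 1.65%. The difference of medians was −0.038, and −0.0081 without *ref4-3* replicate 1. Such genes made up 35.1% of decreased, 13.2% of increased and 36.0% of all regions. Pseudogenes had 12 of 282 regions decreased (4.26%) and 4 increased (1.42%). For them the median deviation was −0.061 in *ref4-3* replicate 1, 0.017 in *ref4-3* replicate 2, and 0.013 and 0.026 in the wild-type libraries. Without *ref4-3* replicate 1 they had 9 decreased and 5 increased genes, without *ref4-3* replicate 2 there were 19 and 0, and without wild-type replicates 1 and 2 there were 4 and 1, and 4 and 0.

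Neighbouring regions of different genes changed together slightly more often than the background. Each region was paired with the next region of another, non-overlapping gene, and each called region was counted once in every pair that held it. Of 1375 such entries of increased regions 88 had an increased partner (6.40%), against 2.76% of all entries in these pairs. Of 820 entries of decreased regions 26 had a decreased partner (3.17%), against 1.64%. A pair with both regions called counts at both, and genes with several regions enter more than once. These are therefore not shares of genes. With at least 1000 bp between the regions these shares were 6.24% and 2.60%, against 2.95% and 1.76%. Across 24954 pairs the log2 fold changes correlated at r = 0.080, and at 0.24 for regions less than 200 bp apart. These pairs share libraries and their neighbouring fragments, and genes are not independent replicates, so r is a description. Runs of called neighbours were short. Decreased genes formed 28 runs, 13 of which held no overlapping genes, and increased genes 57, of which 31 held none. The longest had 3 genes. The run at PIN7 spanned 16287 bp on chromosome 1 and held the sulfate transporter gene AST91 (0.27) and AT1G23100, a GroES-like gene (0.31). AST91 had 63.9 and 58.4 CPM in *ref4-3* libraries, against 51.2 and 50.5 CPM in wild-type libraries. MCCB lay in a run with ABF3, an abscisic acid response factor (0.32), and DJ1C (0.44), and that run holds overlapping genes.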

How the data were processed

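Chromatin from pooled whole rosettes was immunoprecipitated with an antibody to H2A.Z. According to the authors' methods, reads were trimmed with fastp, mapped to TAIR10 with Bowtie2 and kept as proper pairs, and enriched islands were called with epic2. The 2 sources used here give different Bowtie2 versions, so none is stated. Islands of both genotypes were joined and intersected with genes (minimum 200 bp). The authors deposited fragment counts per region and library, neither normalized nor corrected for input, so a shift shared by most regions cannot be seen. Overlapping genes share fragments.

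Following the study's methods, counts were tested with edgeR's exact test (4.0.16, R 4.3.3) of *ref4-3* over wild type on all 24960 regions, with FDR below 0.05 and fold above 1.2. TMM factors and tagwise dispersion were chosen here. DESeq2 1.42.0 was an alternative, among 17 in all. Values are TMM-scaled CPM with n = 2 libraries per genotype. With 2 libraries per genotype the smallest p from permuting labels exactly is 0.333, so no such test was used. Gene names and products come from RefSeq TAIR10.1, where all 22249 genes matched. The promoter window could be read for all but 1 of them. Near-identical copies were searched with blastn 2.17.0 (95% over 100 bp).

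Replicate numbers did not pair the samples. The log2 ratios of replicate 1 over replicate 2 correlated at r = −0.025 between the genotypes, so no block entered the test.

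The comparison, lists and families were chosen with earlier results of these data known. Named genes are those called by both tools, the 12 largest changes per direction (mean count of at least 100, groups apart), up to 4 called members per list, the strongest per family, and the members of called runs. Other called list members were named after their values were seen. Lists held 487 symbols, of which 458 matched a gene.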

Additional observations from a re-analysis of the deposited data

How the results depend on the processing

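The numbers of decreased and increased genes, 398 and 646, fell under stricter criteria to 197 and 304 (FDR below 0.01) and to 41 and 75 (fold above 1.5), and to 17 and 15 with DESeq2. With each library left out in turn they ranged from 79 to 543 and from 99 to 671. The quasi-likelihood fit with a replicate block called 394 and 607 genes, against 412 and 677 without the block. The numbers do not pair the samples. Library totals, RLE factors, a minimum mean count, removal of overlapping regions, 1 region per gene and offsets for GC content, length or mean count gave 323 to 482 decreased and 593 to 703 increased genes.

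Class differences moved with some choices. The length contrast of −0.062 became −0.0044 with length offsets and 0.010 with mean count offsets. With libraries left out, the contrast by wild-type density ranged from 0.058 to 0.17, that by density over all libraries from −0.039 to 0.084, that of H3K27me3 genes from −0.069 to −0.0081, that of inside regions from 0.010 to 0.096 and that by GC content from −0.033 to 0.0014. The cause was not tested.

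Of the 236 named regions 0 changed direction in any alternative. The call was lost at 204 with DESeq2, at 159 and 127 without wild-type replicates 2 and 1, at 61 and 45 without *ref4-3* replicates 2 and 1, and at 7 with the replicate block. Counts for single lists under every alternative were added after the data were seen. With 2 libraries per genotype, small differences were not detectable, and a list without calls is not shown to be unaffected.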
